A study of Mus musculus with 37 samples.

Results

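The genes examined were 30 genes of cholesterol and fatty acid synthesis, chosen by symbol: Acat2, Hmgcs1, Mvk, Pmvk, Mvd, Idi1, Fdps and Ggps1 of the mevalonate pathway, Fdft1, Sqle, Lss, Cyp51, Tm7sf2, Msmo1, Nsdhl, Hsd17b7, Ebp, Sc5d and Dhcr7 of the sterol branch, Insig1, Srebf1, Srebf2, Scap, Stard4 and Abca1 of sterol control and transport, and Acly, Acaca, Fasn, Scd1 and Scd2 of fatty acid synthesis. All 30 were among the 27407 genes of the whole-organoid table, the 20500 genes of the table of sorted cells and the 27547 genes of the irradiation table. Each of them reached 20 unique molecular identifiers (UMIs, counted RNA molecules) in the whole-organoid table, whereas 29 did so in each of the other tables, where Abca1 stayed below. After the filter on low counts, 30 were tested in whole organoids, and 28 in either set of sorted cells, in which Idi1 and Abca1 were too low. The tested genes are therefore not the whole pathway. The genes were listed by symbol and pathway and not by a threshold on a measured value, but with earlier results of these data known.

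The material was murine jejunal organoids, epithelial cultures grown from intestinal crypts, given vasoactive intestinal peptide (VIP), a neuropeptide of the enteric nervous system. Whole organoids from adult C57Bl/6 mice were cultured for 72 h without VIP (3 mice, 5 libraries) or with 100 nM VIP (4 mice, 8 libraries). Lgr5-EGFP+ cells, the fluorescent stem and progenitor cells sorted from organoids of Lgr5-EGFP-IRES-CreERT2 reporter mice, were taken after 72 h without or with 100 nM VIP (4 mice each). In a further experiment, sorted Lgr5-EGFP+ cells of 4 other mice were compared in 4 groups of 4 samples: without VIP at 0 Gy, with 100 nM VIP at 0 Gy, without VIP at 6 Gy, and with 100 nM VIP at 6 Gy, all with 48 h of culture with or without VIP that followed the irradiation. How long the organoids had been plated before irradiation is described in more than 1 way in the sources, and no result here uses it. In each experiment the organoids of 1 mouse supplied the treated and the untreated sample, except that VIP mouse 4 of the whole organoids had no untreated partner and so carried no weight in the fit by mouse. The reporter marks only cells that express EGFP from the altered Lgr5 allele. The samples hold RNA of many cells, so that fewer cells of a type and less RNA per cell cannot be told apart.

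Cholesterol is built from acetyl-CoA through mevalonate and isoprenoid units to squalene and then, by ring closure and a series of demethylations, reductions and isomerisations, to the sterol itself. Fatty acids are built from the same acetyl-CoA by Acly, Acaca and Fasn and desaturated by Scd1 and Scd2. Both branches are switched on by the SREBP transcription factors, encoded by Srebf1 and Srebf2, which the protein encoded by Scap escorts from the endoplasmic reticulum when sterols are low and which the protein encoded by Insig1 holds back when sterols are high. The intestinal epithelium both absorbs cholesterol and makes its own, and crypt cells are known for active sterol synthesis.

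The promoters of members whose values are given in detail below are shown first, since SREBP acts on these genes from sites near the transcription start. RefSeq windows (GRCm38.p6), from 250 bases before to 50 after the start, were held for 24 of the 30 members. Fdps, Fdft1, Sqle, Stard4, Scd1 and Scd2 had no window and were not searched. On both strands, the sterol regulatory element TCACNCCAC lay in 1 of those 24, Hmgcs1, against 1.436% of the 27025 genes with a window. The shorter core CACNCCAC, which each such element also contains and which was added after the values were seen, lay in 3 of 24, Acat2, Hmgcs1 and Insig1 (12.5% against 7.123% of all genes). The CCAAT box, the letters bound by NF-Y, lay in 20 of 24 (83.33% against 41.06%). The repeat bound by the liver X receptors lay in 0 of 24 (0.0148% of all genes). These counts describe letters in the windows and not occupied sites. Only exact matches were counted, so that elements with other letters or outside the windows would be missed. Matches to the sterol motifs and to CCAAT on either strand are in capitals in the windows of the 3 genes with a sterol core and in that of Nsdhl, with several CCAAT boxes. The windows are Hmgcs1 (chr13:119690101-119690400, plus strand), Insig1 (chr5:28071162-28071461, plus strand), Acat2 (chr17:12960676-12960975, minus strand) and Nsdhl (chrX:72918271-72918570, plus strand), each written from 5′ to 3′ along the gene.
Hmgcs1: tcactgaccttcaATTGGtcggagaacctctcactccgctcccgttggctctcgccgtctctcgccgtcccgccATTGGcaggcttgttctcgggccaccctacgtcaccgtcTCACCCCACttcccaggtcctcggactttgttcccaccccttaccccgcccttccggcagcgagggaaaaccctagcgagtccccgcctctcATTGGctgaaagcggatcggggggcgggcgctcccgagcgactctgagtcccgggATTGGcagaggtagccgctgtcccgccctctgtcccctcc
Insig1: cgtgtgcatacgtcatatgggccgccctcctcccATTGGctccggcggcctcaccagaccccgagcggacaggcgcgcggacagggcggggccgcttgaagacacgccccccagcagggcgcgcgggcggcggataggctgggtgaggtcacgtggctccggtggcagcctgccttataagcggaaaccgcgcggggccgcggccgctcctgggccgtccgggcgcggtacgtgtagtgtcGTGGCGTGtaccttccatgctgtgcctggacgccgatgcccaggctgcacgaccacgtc
Acat2: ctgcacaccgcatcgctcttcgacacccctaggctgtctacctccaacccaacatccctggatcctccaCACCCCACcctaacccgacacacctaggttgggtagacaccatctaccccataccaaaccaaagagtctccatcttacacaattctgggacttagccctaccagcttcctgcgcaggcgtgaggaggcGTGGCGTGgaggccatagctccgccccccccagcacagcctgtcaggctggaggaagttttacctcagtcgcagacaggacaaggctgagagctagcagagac
Nsdhl: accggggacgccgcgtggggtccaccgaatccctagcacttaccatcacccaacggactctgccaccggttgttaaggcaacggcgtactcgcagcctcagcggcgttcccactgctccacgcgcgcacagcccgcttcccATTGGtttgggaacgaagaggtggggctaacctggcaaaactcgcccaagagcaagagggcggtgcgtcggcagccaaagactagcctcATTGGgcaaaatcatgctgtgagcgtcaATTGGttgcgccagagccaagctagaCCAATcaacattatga

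Depth ranged from 3722716 to 6330404 UMIs per mouse and condition in whole organoids, from 575242 to 1104126 in the sorted cells of the 72 h experiment, and from 1075715 to 1876729 in the irradiation experiment. The irradiation label was checked with Cdkn1a, a p53 target, which lay between 588 and 699 counts per 1e+06 UMIs (CPM) in the 8 irradiated samples and between 160.3 and 354 CPM in the 8 others. The sorted cells did not hold more Lgr5 RNA than whole organoids: Lgr5 lay between 14.7 and 50.3 CPM in untreated sorted cells at 72 h and between 45.2 and 100.1 CPM in untreated whole organoids. Olfm4, another stem cell gene, lay between 3625 and 5223 CPM against 1318 to 3722 CPM. These levels come from tables that were normalised separately. The experiments also differ in mouse line, with an altered Lgr5 allele in the sorted cells only, so that line and sorting cannot be told apart. Of the 13 libraries of whole organoids, the second library of VIP mouse 3 stood apart. The SD of its log2 difference from its own partner was 0.754, against 0.354 to 0.43 in the other 5 pairs of libraries, and its level of the goblet cell gene Clca1, 51.9 CPM, was among the untreated libraries (40.2 to 59.1 CPM) and not among the VIP libraries of the other mice (176 to 249 CPM). The number of members called in whole organoids, and the values of the members named there, are therefore also given without it.

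A large share of the pathway was lower after irradiation. In cells without VIP, 10 of the 28 tested members were lower after 6 Gy and 0 were higher, at an adjusted p of 0.05 or less (edgeR quasi-likelihood test with the mouse as a block, Benjamini-Hochberg over all 9976 genes), against a background of 1.59% of all genes lower and 2.87% higher. In cells with VIP, 15 of 28 were lower and 0 higher, against 3.46% and 4.32% of all genes. The median log2 fold change over the 28 members was −0.32 without VIP and −0.42 with VIP, while that over all genes was −0.00 and 0.00. Fold changes were below 0 on the log2 scale for 25 of 28 members in either comparison. The change was seen in each mouse: the median over members minus the median over all genes was −0.19, −0.41, −0.19 and −0.37 in mice 1 to 4 without VIP, and −0.44, −0.44, −0.43 and −0.35 with VIP.

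The comparisons with and without VIP used different samples of the same 4 mice. 9 members were called lower in both. The matching overlap among all genes was not counted, so that this number is not shown to be particular to the members. Tm7sf2 passed the test without VIP only, and Mvd, Fdft1, Cyp51, Msmo1, Sc5d and Dhcr7 with VIP only. Passing in 1 comparison and not in the other does not show that the effects differ, and the test of that difference, given further on, called none of them. Every irradiated sample lay below every non-irradiated one for 13 of 28 members without VIP, among them 8 of the 10 called, against 3.84% of all genes. With VIP this held for 14 of 28, all of them called, against 6.53% of all genes. Members lower in all 4 mice numbered 16 without VIP (57.1%, against 11% of all genes) and 17 with VIP (60.7%, against 14.2%).

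**Figure D1:**
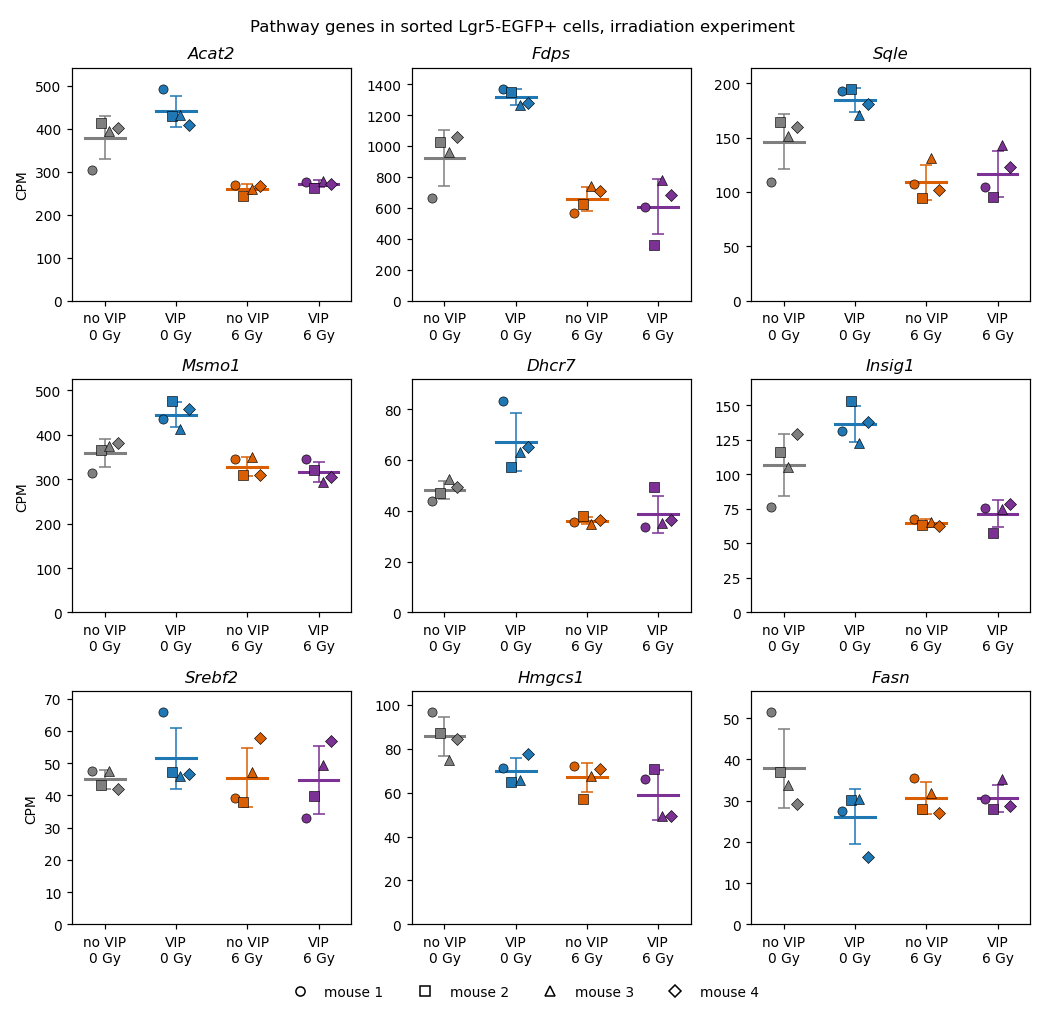
CPM of selected members in each of the 16 sorted Lgr5-EGFP+ cell samples of the irradiation experiment, with 1 point per mouse and the group mean as a line. Fdps sits between 1265 and 1370 CPM with VIP at 0 Gy and between 360.0 and 779.5 CPM with VIP at 6 Gy, and Acat2 between 305 and 493 CPM in the 8 non-irradiated samples and between 244 and 279 CPM in the 8 irradiated ones.

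In the mevalonate arm, 4 of 7 tested members were called lower without VIP and 5 of 7 with VIP. Fdps, which makes farnesyl pyrophosphate, the last isoprenoid before squalene, changed most among the members with VIP. It lies on chromosome 3 (chr3:89093588-89101959, minus strand, GRCm38, a protein-coding gene). With VIP it measured 1369.8, 1346, 1265 and 1279 CPM in mice 1 to 4 at 0 Gy and 607, 360.0, 779.5 and 682 CPM at 6 Gy, so that the groups were far apart and mouse 2 was the lowest. That difference was 2.19-fold (log2 fold change −1.13 ± 0.13 (SE), adjusted p = 2.62e-06, mean 1315 ± 50.8 to 607 ± 179 CPM, SD, n = 4). Without VIP it measured 660.5, 1026, 960.2 and 1055 CPM at 0 Gy and 569, 623, 738 and 709.7 CPM at 6 Gy, where the untreated value of mouse 1 lay among the irradiated ones (log2 fold change −0.49 ± 0.13 (SE), adjusted p = 0.0348).

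Acat2, the cytosolic thiolase that joins the first acetyl-CoA units, lies on chromosome 17 (chr17:12942890-12960747, minus strand). It measured 305, 412, 395 and 401 CPM without VIP at 0 Gy and 269, 244, 259 and 265 CPM at 6 Gy (log2 fold change −0.55 ± 0.09 (SE), adjusted p = 0.000218). With VIP it measured 493, 428, 432 and 408 CPM at 0 Gy and 277, 261, 279 and 272 CPM at 6 Gy (log2 fold change −0.69 ± 0.08 (SE), adjusted p = 3.65e-06). The irradiated samples were close together in both cases, with means of 259 ± 11.1 and 272 ± 7.89 CPM (SD, n = 4 each), and no irradiated sample reached a non-irradiated one.

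The 3 enzymes that convert mevalonate to isopentenyl pyrophosphate had smaller fold changes than Acat2 and Fdps with VIP. Pmvk, phosphomevalonate kinase, measured 129.8, 151, 138 and 130.4 CPM without VIP and 115, 109, 104 and 95.9 CPM after irradiation (log2 fold change −0.36 ± 0.09 (SE), adjusted p = 0.0121). With VIP it went from 149.9, 144, 140.2 and 146 to 107, 93.2, 100.1 and 101 CPM (log2 fold change −0.53 ± 0.09 (SE), adjusted p = 0.000211). Mvk, mevalonate kinase, was 1.31-fold lower without VIP (adjusted p = 0.0429) and 1.3-fold lower with VIP (adjusted p = 0.0425). Mvd, the decarboxylase, passed the test with VIP (log2 fold change −0.55 ± 0.11 (SE), adjusted p = 0.00199) but measured −0.33 (adjusted p = 0.116) on the log2 scale without it, where mouse 3 went the other way. Hmgcs1, the synthase at the start of the pathway, and Ggps1, which makes geranylgeranyl pyrophosphate, passed in neither. Hmgcs1, whose promoter carries the sterol element printed above, had log2 fold changes of −0.37 (adjusted p = 0.0756) without VIP and −0.27 (adjusted p = 0.199) with VIP. Without VIP, Hmgcs1 was lower in 4 of 4 mice and its groups did not overlap, whereas with VIP they did. Ggps1 had 0.02 (adjusted p = 0.97) and 0.19 (adjusted p = 0.549).

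In the sterol arm, 4 of 11 members were called lower without VIP and 8 of 11 with VIP, and all 11 fold changes were below 0 in both. Fdft1, squalene synthase, which commits farnesyl pyrophosphate to sterols, measured 236, 218, 225 and 236 CPM with VIP at 0 Gy and 173, 145, 176 and 154 CPM at 6 Gy (log2 fold change −0.50 ± 0.07 (SE), adjusted p = 5.72e-05). Without VIP it measured 185, 184, 188 and 187 CPM and then 169, 153, 153 and 168 CPM, a difference that was the same way in 4 of 4 mice and did not overlap but missed the threshold (log2 fold change −0.21 ± 0.08 (SE), adjusted p = 0.122). Its VIP-treated samples at 0 Gy were the highest 4 of all 16.

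Sqle, squalene epoxidase, a rate-limiting enzyme of the branch, measured 193, 195, 171 and 181 CPM with VIP and 105, 95.6, 144 and 123 CPM after irradiation (log2 fold change −0.66 ± 0.12 (SE), adjusted p = 0.000507). Without VIP the values were 109, 165, 151 and 159.7 CPM and 108, 94.5, 131 and 102 CPM (log2 fold change −0.43 ± 0.12 (SE), adjusted p = 0.0409). In the latter case mouse 1 measured nearly the same with and without irradiation. Lss, which closes the rings to lanosterol, was 1.49-fold lower without VIP (adjusted p = 0.0461) and 1.51-fold lower with VIP (adjusted p = 0.0245).

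Of the enzymes that strip the methyl groups from lanosterol, 1 passed in both comparisons. Nsdhl, a sterol dehydrogenase, fell in both comparisons: it measured 105, 126, 125 and 138 CPM and, irradiated, 94.7, 87.4, 73.4 and 97.8 CPM without VIP (log2 fold change −0.48 ± 0.10 (SE), adjusted p = 0.00407), and 129, 143, 120.1 and 136 CPM and 103, 95.6, 97.1 and 92 CPM with VIP (log2 fold change −0.44 ± 0.10 (SE), adjusted p = 0.00439). Msmo1, the methylsterol monooxygenase that acts before it, measured 435, 477, 413 and 457 CPM with VIP and 347, 320.1, 294 and 304 CPM after irradiation (log2 fold change −0.49 ± 0.08 (SE), adjusted p = 0.000143). Without VIP its groups overlapped, at 314, 366, 374 and 383 CPM and 346, 309, 349.7 and 310.1 CPM (log2 fold change −0.13 ± 0.08 (SE), adjusted p = 0.44, 95% interval −0.28 to 0.02). Cyp51, lanosterol demethylase, had log2 fold changes of −0.49 (adjusted p = 0.000467) with VIP and −0.22 (adjusted p = 0.192) without. Hsd17b7, a sterol ketoreductase, did not pass in either (−0.11 and −0.24).

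Of the last enzymes of the branch, Dhcr7, which makes cholesterol from its immediate precursor, measured 83.4, 57.2, 63 and 65 CPM with VIP at 0 Gy and 33.7, 49.4, 35.2 and 36.3 CPM at 6 Gy (log2 fold change −0.82 ± 0.14 (SE), adjusted p = 0.000398). Without VIP it measured 43.9, 46.9, 52.6 and 49.2 CPM and then 35.5, 37.9, 34.8 and 36.3 CPM, lower in 4 of 4 mice but not past the threshold (log2 fold change −0.42 ± 0.15 (SE), adjusted p = 0.13). Sc5d, a sterol desaturase, fell with VIP (log2 fold change −0.40 ± 0.10 (SE), adjusted p = 0.0154) and had a fold change of −0.19 (adjusted p = 0.373) without. Tm7sf2, a sterol reductase, fell without VIP (log2 fold change −0.43 ± 0.12 (SE), adjusted p = 0.0417) and was just short of the threshold with VIP, at −0.38 (adjusted p = 0.0518). Ebp, a sterol isomerase, passed in neither (−0.17 and −0.25), although without VIP it was lower in 4 of 4 mice and its groups did not overlap.

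**Figure D2:**
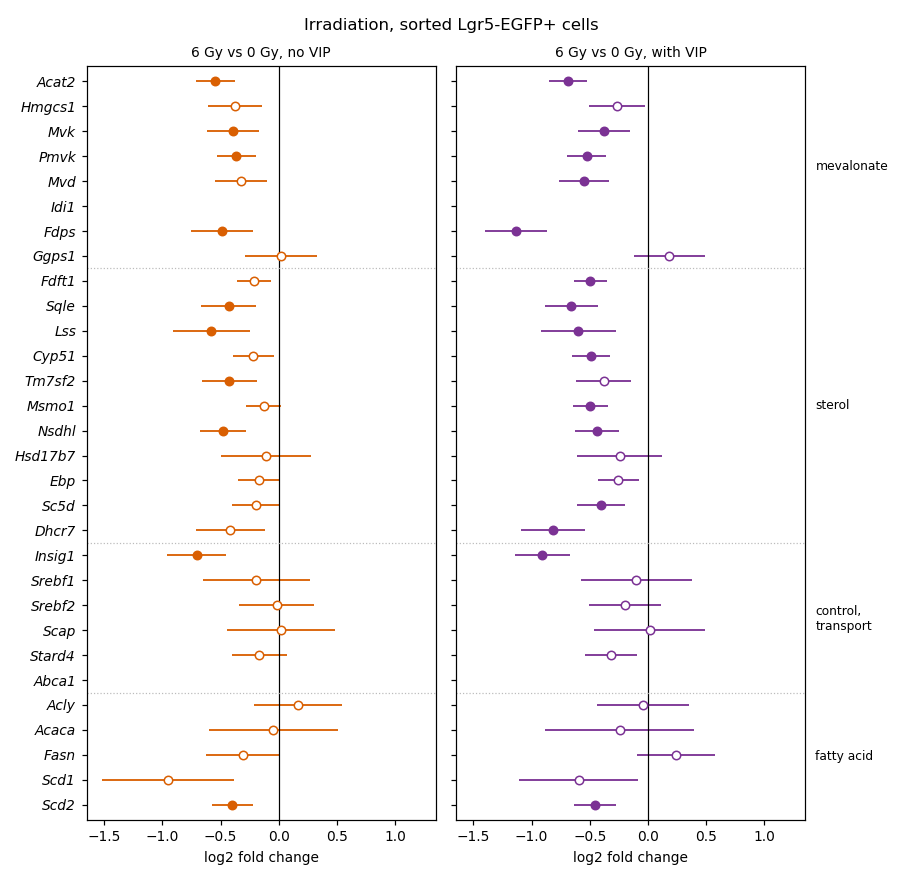
Log2 fold change of irradiated against non-irradiated Lgr5-EGFP+ cells for each of the 28 tested members, without VIP and with VIP, with bars for the 95% interval and filled points where the adjusted p is 0.05 or less. The sterol arm sits below 0 in both comparisons, from −0.11 to −0.58 without VIP and from −0.24 to −0.82 with VIP.

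Among the control genes, Insig1 was the 1 of 5 tested members called lower, in both comparisons, while 4 of 5 had fold changes below 0 in each. Insig1 (chr5:28071363-28078662, plus strand) is itself a target of SREBP and a customary readout of its activity. It measured 76.5, 116, 105 and 129 CPM without VIP at 0 Gy and 68, 63.2, 65.7 and 62.4 CPM at 6 Gy (1.63-fold lower, log2 fold change −0.71 ± 0.13 (SE), adjusted p = 0.00124). With VIP it measured 132, 154, 123 and 138 CPM and then 75.9, 57.3, 75.1 and 78.5 CPM (1.88-fold lower, log2 fold change −0.91 ± 0.12 (SE), adjusted p = 1.57e-05). No irradiated sample reached a non-irradiated one of its VIP group, and untreated mouse 1 was the nearest.

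The genes for the SREBP proteins and their escort were not called lower. Srebf2, whose product drives the cholesterol genes, measured 47.7, 43.2, 47.5 and 41.9 CPM without VIP at 0 Gy and 39, 37.9, 47.3 and 57.7 CPM at 6 Gy, with a log2 fold change of −0.02 (adjusted p = 0.982) and a 95% interval of −0.34 to 0.31. With VIP the fold change was −0.20 (adjusted p = 0.527). Srebf1 had −0.19 (adjusted p = 0.751) without VIP and −0.10 (adjusted p = 0.868) with VIP, and its non-irradiated values of 24.5, 13.1, 17.7 and 12.6 CPM were spread more widely than the irradiated ones of 14.2, 15.4, 15.5 and 14.9 CPM. Scap had 0.02 and 0.01. Stard4, which carries cholesterol between membranes, had −0.17 (adjusted p = 0.55) and −0.32 (adjusted p = 0.0927). Without VIP the 95% intervals of these genes reached down to −0.34 for Srebf2, −0.40 for Stard4, −0.44 for Scap and −0.65 for Srebf1, so that falls of the size of that of Pmvk were within all but the first. Abca1, the cholesterol exporter and a liver X receptor target, had only 15 UMIs over all 16 samples and was at 0 in the 4 irradiated samples without VIP, so that no change in it was detectable at this depth.

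In the fatty acid arm, Scd2 was the 1 of 5 members to pass in both comparisons. This stearoyl-CoA desaturase measured 182, 130.2, 127 and 114 CPM without VIP and 113, 112, 106 and 87.5 CPM after irradiation (log2 fold change −0.40 ± 0.09 (SE), adjusted p = 0.00937), and 180.5, 135, 126 and 107 CPM and 116, 99.5, 93 and 87.7 CPM with VIP (log2 fold change −0.46 ± 0.09 (SE), adjusted p = 0.00186). It differed among the mice as well, mouse 1 being the highest and mouse 4 the lowest in both non-irradiated groups. Scd1, a second desaturase, measured 22.6, 10.6, 8.58 and 9.32 CPM and 7.69, 4.4, 8.7 and 6.52 CPM without VIP, with the largest fold change of the members but few counts behind it (log2 fold change −0.95 ± 0.29 (SE), adjusted p = 0.0602). Fasn, fatty acid synthase, had log2 fold changes of −0.31 (adjusted p = 0.358) without VIP and 0.24 (adjusted p = 0.448) with VIP, on opposite sides of 0. Acly and Acaca, which supply it with acetyl-CoA and malonyl-CoA, had 0.17 and −0.05 without VIP and −0.04 and −0.24 with VIP, and none of these passed.

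The untreated, non-irradiated sample of mouse 1 stood apart from those of the other 3 mice. It was the lowest of its group in Fdps (660.5 CPM), Acat2 (305 CPM), Insig1 (76.5 CPM) and Sqle (109 CPM) and the highest in Acly (42 CPM), Fasn (51.4 CPM), Scd1 (22.6 CPM) and Scd2 (182 CPM). The number of members called also depended on the mice in the fit. Without VIP it was 3 when mouse 3 or mouse 4 was left out, 5 with no replicate block, 5 when every gene needed 10 counts in every sample, and 4 by DESeq2. The number of all genes called, 445 in the fit above, fell as well, to 212, 176, 322, 362 and 281 in that order. With VIP the number of members stayed between 13 and 15 under the same settings. That of all genes, 776 in the fit above, then lay between 426 and 662. Acat2 and Insig1 were called lower in both comparisons under all 12 settings tried.

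Cell type markers moved with irradiation too. For comparison with the counts below, 2.87% of all genes were called higher and 1.59% lower without VIP, and 4.32% and 3.46% with VIP. All 8 Paneth cell markers were higher after 6 Gy in both comparisons, and their summed level went from 10088–14727 to 14749–28569 CPM without VIP and from 8613–9871 to 14801–16821 CPM with VIP. Higher were also 5 and 3 of 8 goblet cell markers, 4 and 7 of 8 enteroendocrine markers and 4 and 0 of 9 enterocyte markers, without and with VIP respectively, and Vim, the 1 tested non-epithelial marker, in both. Stem cell markers were lower in 2 and 3 of 9 tested, led by Olfm4 at −0.64 and −0.86 on the log2 scale, but 5 and 4 of the 9 had fold changes above 0, none of them called, and the median of the list was 0.019 and −0.26. The summed level of the listed stem cell genes, most of which was Olfm4, went from 3644–4729 to 2724–3136 CPM without VIP and from 5550–6058 to 3349–3967 CPM with VIP. Without Olfm4 the sum went from 1104–1222 to 958–1124 CPM and from 1209–1415 to 1123–1212 CPM, with overlapping ranges in both cases. Of 10 proliferation markers, 0 and 1 were lower. The part of these shifts in the lower sterol genes was not tested.

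Other genes of the same chemistry gave a mixed picture. Of 21 further fatty acid genes tested, 3 were lower and 1 higher after irradiation without VIP, and 6 were lower and 0 higher with VIP. Of all genes, 1.59% were lower and 2.87% higher without VIP, and 3.46% and 4.32% with VIP. Acss2, which makes acetyl-CoA from acetate, was lower in both (−0.76, adjusted p = 0.000547 and −0.95, adjusted p = 1.09e-05 on the log2 scale), as were the fatty acid desaturases Fads1 (−0.56, adjusted p = 0.00209 and −0.66, adjusted p = 0.000174) and Fads2 (−0.47, adjusted p = 0.00781 and −0.65, adjusted p = 0.000198). Acsl5, a long-chain acyl-CoA synthetase of absorptive cells, was higher without VIP at 0.54 (adjusted p = 0.000591). With VIP, Elovl6, a fatty acid elongase, was also lower (−0.46, adjusted p = 0.0176).

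Of 19 further sterol genes, 1 was lower and 2 higher without VIP, and 3 were lower with VIP. The shares of all genes are those given for the fatty acid genes, here and for the lists that follow. The higher ones were Scarb1, a lipoprotein receptor (0.63, adjusted p = 0.021), and Cyp27a1, a sterol hydroxylase (1.59, adjusted p = 0.0357). Those lower with VIP were Rdh11 (−0.75, adjusted p = 0.00137), Aacs, acetoacetyl-CoA synthetase (−0.68, adjusted p = 0.0191), and Tmem97, a sterol-regulated membrane protein (−0.48, adjusted p = 0.000614). Among 6 liver X receptor and efflux genes, 0 passed without VIP and 1 with VIP, Lpcat3, a phospholipid acyltransferase (−0.43, adjusted p = 0.00163). Among 13 genes of fatty acid oxidation and ketogenesis, 2 were lower without VIP, Ppara (−1.32, adjusted p = 0.0457) and Acaa2 (−0.30, adjusted p = 0.0123), and 0 with VIP.

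**Figure D3:**
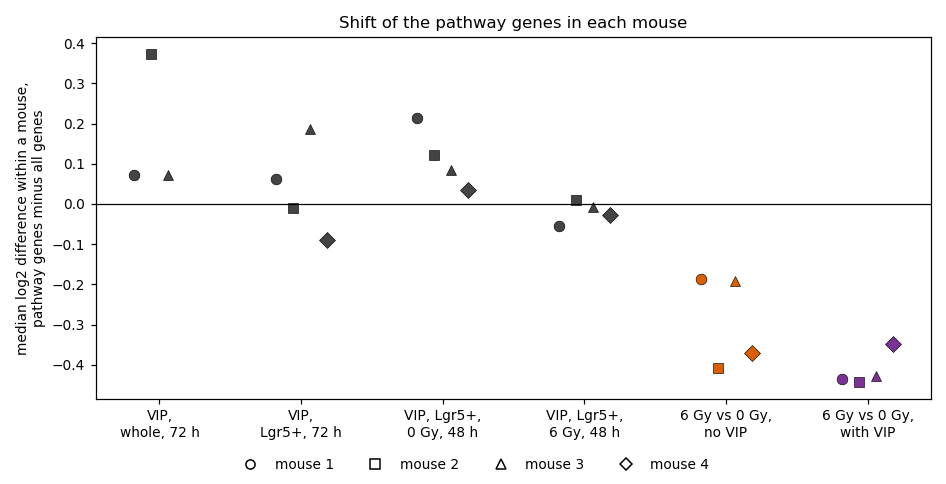
Median log2 difference over the tested members minus the median over all genes, for each mouse in each comparison (1 point per mouse, y axis in log2 units). In the irradiation comparisons all 8 points sit below 0, from −0.19 to −0.44, whereas the points for VIP lie from −0.09 to 0.37.

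With VIP and no irradiation, 1 enzyme of the sterol branch was called, in the upward direction. In non-irradiated Lgr5-EGFP+ cells of the irradiation experiment, Fdft1 was the 1 of 28 members called higher and 0 were lower, against 0.481% and 0.261% of all genes. Fdft1 measured 185, 184, 188 and 187 CPM without VIP and 236, 218, 225 and 236 CPM with it (log2 fold change 0.30 ± 0.07 (SE), adjusted p = 0.0492), higher in 4 of 4 mice and without overlap. Fdft1 lost the call whichever mouse was left out (adjusted p = 0.115 to 0.237), by DESeq2 (adjusted p = 0.0557), with no replicate block (adjusted p = 0.0745), with all genes of any count (adjusted p = 0.155) and without the untreated sample of mouse 1 alone (adjusted p = 0.122). In some of these fits other members were called higher: Msmo1 by DESeq2, Fdps without mouse 2, and both of them with all genes of any count. This comparison shares its untreated samples with the irradiation comparison without VIP and its VIP samples with that with VIP.

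Below the threshold, 12 of 28 members had an unadjusted p under 0.05, as did 1237 of 9976 genes. Members higher with VIP in all 4 mice numbered 9 (32.1%, against 10.2% of all genes), namely Acat2, Mvd, Fdps, Fdft1, Sqle, Cyp51, Msmo1, Dhcr7 and Insig1. Fdps measured 660.5, 1026, 960.2 and 1055 CPM without VIP and 1369.8, 1346, 1265 and 1279 CPM with it, all 4 VIP samples above all untreated ones (log2 fold change 0.52 ± 0.13 (SE), adjusted p = 0.0596). Msmo1 had 0.31 (adjusted p = 0.0556), Dhcr7 0.47 (adjusted p = 0.0963), Cyp51 0.29 (adjusted p = 0.0972), Insig1 0.36 (adjusted p = 0.168) and Sqle 0.34 (adjusted p = 0.17) on the log2 scale. The 4 members that were lower in all 4 mice (14.3%, against 10.5% of all genes) were Hmgcs1 (−0.29), Mvk (−0.22), Acaca (−0.55) and Fasn (−0.54). Fasn measured 51.4, 36.9, 33.8 and 29.3 CPM and 27.5, 30.1, 30.5 and 16.4 CPM (adjusted p = 0.135), with untreated values that spread over more than the difference. Summed over all 30 members, the level lay at 3312–3921 CPM without VIP and 4258–4662 CPM with VIP, against 2722–3048 and 2491–2998 CPM in the irradiated groups. Fdps, the member with the highest values, had means of 925 CPM without VIP and 1315 CPM with it at 0 Gy. A large part of the difference between those sums thus lay in that gene. Of the 28 tested members, 17 had fold changes above 0 with VIP and 11 below, when 49.4% of all genes were above. Cell type markers differed with VIP as well: the stem cell sum was 3644–4729 CPM without VIP and 5550–6058 CPM with it. Olfm4 was the 1 of 9 tested stem cell markers called higher (0.57 on the log2 scale). Without Olfm4 the sum was 1104–1222 CPM without VIP and 1209–1415 CPM with it, with overlapping ranges. Of 9 enterocyte markers, 2 were called lower, Fabp1 (−0.95) and Fabp2 (−0.41). Of all genes, 0.481% were called higher and 0.261% lower. All 8 Paneth cell markers had fold changes below 0 with 0 called, and their sum was 10088–14727 CPM without VIP and 8613–9871 CPM with it. The part of these markers in the values of the members was not tested.

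**Figure D4:**
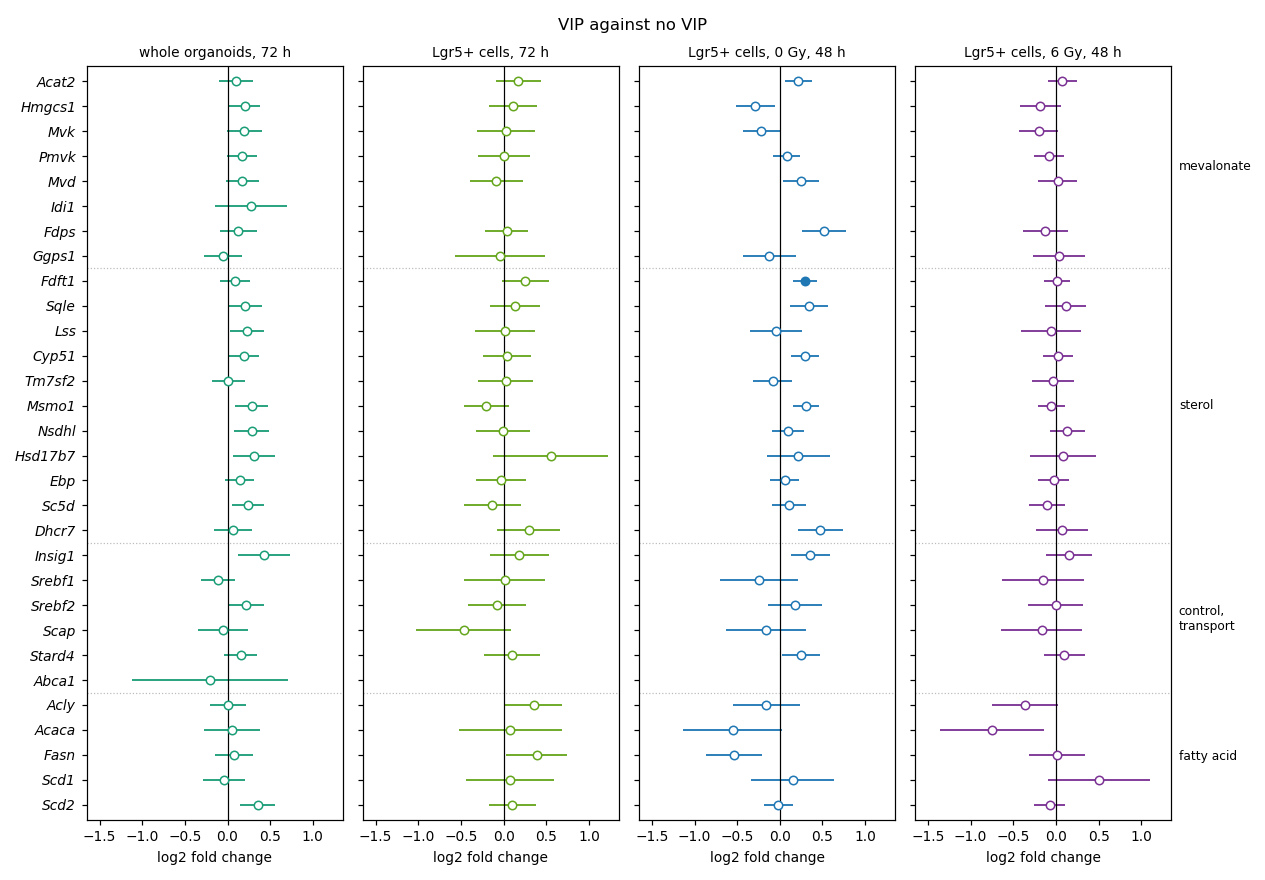
Log2 fold change of VIP against no VIP for the members in whole organoids, in sorted cells at 72 h, and in sorted cells of the irradiation experiment at 0 Gy and 6 Gy, with bars for the 95% interval and filled points where the adjusted p is 0.05 or less. Fdft1 at 0 Gy, at 0.30, is the 1 filled point, and the sterol arm in whole organoids sits above 0 throughout with no filled point.

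After irradiation, VIP changed 0 of 28 members by edgeR and 0 by DESeq2, against 0.13% of all genes higher and 0.0902% lower. 1 member, Acaca, had an unadjusted p under 0.05, as had 574 genes. Acaca, acetyl-CoA carboxylase, measured 10.1, 11, 9.66 and 7.45 CPM without VIP and 6.95, 3.19, 8.34 and 4.33 CPM with it, lower in 4 of 4 mice at low counts (log2 fold change −0.75 ± 0.31 (SE), adjusted p = 0.73). Fdps measured 569, 623, 738 and 709.7 CPM and 607, 360.0, 779.5 and 682 CPM, so that the groups overlapped fully (−0.12 on the log2 scale, 95% interval −0.39 to 0.14). For Fdft1 the interval was −0.14 to 0.16 around 0.01.

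The difference between the VIP effects at 6 Gy and 0 Gy, which is also the difference between the irradiation effects with and without VIP, was tested as an interaction. By edgeR and by DESeq2 it was called for 0 of 28 members, and for 0% of all genes in either direction. By edgeR, 5 members and 634 genes had an unadjusted p under 0.05. Fdps had the lowest p of the members, with a VIP effect lower by 0.65 on the log2 scale at 6 Gy (interaction −0.65, 95% interval −1.02 to −0.27, unadjusted p = 0.00228, adjusted p = 0.678). It was called, at −0.63, when all genes with any count were tested. The others were Msmo1 (−0.36), Fdft1 (−0.29), Fasn (0.55) and Cyp51 (−0.27), with adjusted p from 0.678 to 0.746.

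In whole organoids at 72 h, VIP changed 0 of 30 members by edgeR and 0 by DESeq2, although 3.72% of all genes were higher and 1.1% lower. 8 members had an unadjusted p under 0.05, as had 2090 of 12727 genes. 25 of the 30 fold changes were above 0, among them all 11 of the sterol arm (median 0.21), against 49.3% of all genes. Members higher in all 3 mice with both conditions numbered 14 (46.7%, against 19.5% of all genes), and 1 was lower, Srebf1 (3.33%, against 18.7%). Msmo1 measured 424, 313 and 443 CPM in untreated mice 1 to 3 and 516, 451, 453 and 530.1 CPM in VIP mice 1 to 4 (log2 fold change 0.28 ± 0.10 (SE), adjusted p = 0.16). Sc5d measured 191, 162 and 192 CPM and 209, 220.3, 212 and 222 CPM (log2 fold change 0.24 ± 0.10 (SE), adjusted p = 0.216). Every VIP sample was above every untreated one for Sc5d, Msmo1 and Pmvk, and the share of all genes for which this held was not counted. Nsdhl measured 116, 87.8 and 127 CPM and 138, 125, 135 and 143 CPM (log2 fold change 0.28 ± 0.10 (SE), adjusted p = 0.172).

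Insig1 in whole organoids measured 250.5, 154 and 207 CPM without VIP and 308, 317, 196 and 316 CPM with it (log2 fold change 0.42 ± 0.16 (SE), adjusted p = 0.176). It was higher with VIP in mice 1 and 2 but not in mouse 3, whose libraries read 197 and 202 CPM against 268 to 357 CPM in the libraries of the other VIP mice. Srebf2 measured 65.2, 64.5 and 62.7 CPM and 76.3, 83.6, 64.9 and 78.3 CPM (log2 fold change 0.22 ± 0.10 (SE), adjusted p = 0.31). Scd2 had the lowest p of the members and measured 559.5, 517 and 215 CPM and 596, 640.4, 343 and 588 CPM (log2 fold change 0.35 ± 0.11 (SE), adjusted p = 0.0877), mouse 3 being the lowest in both conditions. The same untreated sample of mouse 3 was also the lowest in Acly (42.9 CPM), Acaca (11.7 CPM), Fasn (48.1 CPM) and Scd1 (75 CPM).

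The count in whole organoids rested on mouse 3. Without that mouse, 9 of 30 members were called higher (Hmgcs1, Sqle, Lss, Cyp51, Msmo1, Nsdhl, Sc5d, Insig1 and Srebf2), with Insig1 at 0.66 (adjusted p = 3.00e-11) and Msmo1 at 0.40 (adjusted p = 9.35e-05) on the log2 scale, when 1084 of 12993 genes were higher and 584 lower. That fit has 2 pairs of mice. Without the second library of VIP mouse 3, 3 members were called higher, Msmo1, Nsdhl and Sc5d, which is 10% of the members, when 6.46% of all genes were higher and 3.48% lower. Without its first library 0 members and 0 genes were called. With the second library left out, the fold changes were 0.33 (adjusted p = 0.0188) for Msmo1, 0.33 (adjusted p = 0.0249) for Nsdhl, 0.28 (adjusted p = 0.0454) for Sc5d, 0.42 (adjusted p = 0.114) for Insig1 and 0.21 (adjusted p = 0.183) for Srebf2 on the log2 scale. 22 of the 30 members then had fold changes above 0, and 15 were higher in all 3 mice, against 21.8% of all genes. Scd2 went from 0.35 to 0.15 (adjusted p = 0.232). The libraries of VIP mouse 3 read 228 and 529 CPM for it, the first of them near the 217 CPM of the untreated sample of that mouse. Goblet cell markers rose with VIP in whole organoids (6 of 8 called in the fit of all libraries, against 3.72% of all genes higher), and their part in the values above was not tested.

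**Figure D5:**
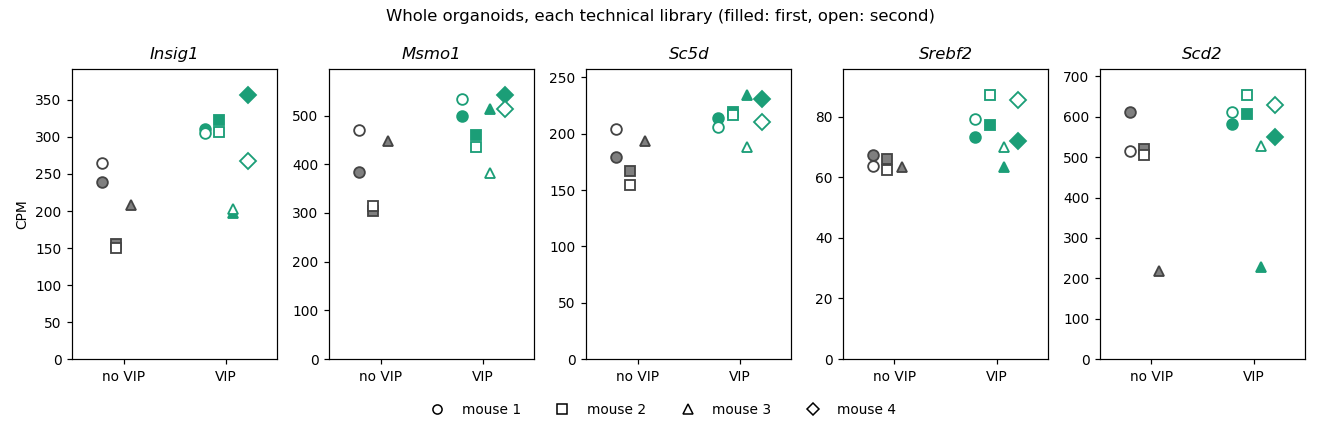
CPM of selected members in each of the 13 libraries of whole organoids, by mouse and condition, with separate points for technical libraries of the same mouse. Insig1 sits at 197 and 202 CPM in both libraries of VIP mouse 3 and between 268 and 357 CPM in those of the other VIP mice.

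In Lgr5-EGFP+ cells at 72 h, VIP changed 0 of 28 members by edgeR and 0 by DESeq2, against 0.059% of 6778 genes higher and 0.0295% lower. 1 member had an unadjusted p under 0.05, as had 373 genes. That member was Fasn, which measured 97.3, 133, 51.4 and 127 CPM without VIP and 123, 173, 123 and 108 CPM with it (log2 fold change 0.39 ± 0.18 (SE), adjusted p = 0.884). Fdft1 measured 168, 183, 185 and 239 CPM and 227, 196, 196 and 312 CPM, higher in 4 of 4 mice (log2 fold change 0.26 ± 0.14 (SE), adjusted p = 0.884, 95% interval −0.02 to 0.54). Msmo1 measured 379, 401, 485 and 477 CPM and 348, 380.0, 347 and 436 CPM, lower in 4 of 4 mice (log2 fold change −0.20 ± 0.13 (SE), adjusted p = 0.919). Insig1 had 0.19 (adjusted p = 0.951) and Sqle 0.13 (adjusted p = 0.96), with untreated groups as wide as 68.8 to 151 CPM for Insig1. These are the shallowest libraries, and the interval of Fdft1 takes in the 0.30 called at 0 Gy in the irradiation experiment.

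The VIP effect in sorted cells was compared with that in whole organoids in 1 fit of both 72 h experiments, which differ in mouse line as well as in cells. It differed for 0 of 29 members by edgeR and by DESeq2, against 0.0196% of 10194 genes higher and 0.128% lower in the sorted cells. Msmo1 was the 1 member with an unadjusted p under 0.05 (−0.48, unadjusted p = 0.0124, adjusted p = 0.598), as had 636 genes. Sc5d had −0.37, Nsdhl −0.29 and Srebf2 −0.29, none of which passed. Of 7 liver X receptor and efflux genes tested in whole organoids, 1 passed for VIP, the liver X receptor gene Nr1h3, which was lower (log2 fold change −0.80). It was not examined with mouse 3 or its libraries left out. Of 21 further sterol genes, 23 further fatty acid genes and 14 genes of fatty acid oxidation and ketogenesis, 0 passed there. Of all genes, 3.72% were higher and 1.1% lower. 0 of the other sterol, fatty acid and efflux genes tested passed for VIP in either set of sorted cells.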

How the data were processed

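Messenger RNA of mouse jejunal organoids was measured by 3′ sequencing with molecular identifiers in 37 libraries. The authors made the deposited count tables with the Drop-seq pipeline (1.0) on GRCm38 with GENCODE M25, and the values are whole UMI counts per gene. Technical libraries of a mouse were summed. Counts were tested per experiment with edgeR 4.0.16 (quasi-likelihood F-test, TMM, filterByExpr by group, mouse as a block) on R 4.3.3, and p-values were adjusted by Benjamini-Hochberg over all genes tested. A gene was called at an adjusted p of 0.05 or less. Intervals are 1.96 SE on either side of the fold change. CPM used TMM-scaled library sizes, and per-mouse differences a prior count of 2. Deposited strand settings were not given in the sources used here.

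The mouse block follows the labels, which name the mouse of each sample. Residuals of samples of the same mouse correlated at 0.27 to 0.63 in whole organoids, 0.03 to 0.21 in sorted cells at 72 h and −0.07 to 0.16 in the irradiation experiment. For samples of different mice the ranges were −0.54 to 0.33, −0.14 to 0.15 and −0.20 to 0.20. The ranges overlapped in each experiment, and in the irradiation experiment the same-mouse range lay within the other. No pair of libraries agreed within sampling noise. Positions came from GENCODE M21 (GRCm38) and promoters from RefSeq (GRCm38.p6). The code was tested on simulated data. The members, the further gene lists and the cell type markers were chosen with earlier results of these data known, so their counts are descriptions. The text names members called in a comparison, those with the lowest p where few or none were, and the regulators. Cdkn1a and the members of which promoters are printed were chosen after their values were seen. Alternatives were DESeq2 1.42.0, other scalings and filters, no replicate block, only the groups compared, and leaving out mice or libraries.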

Additional observations from a re-analysis of the deposited data

Results flagged for a closer look

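Single samples stood apart from the other 3 of their group, by a gap wider than Dixon's 95% critical value, in 15 of 198 groups of 4 samples (7.58%), where chance gives about 1 in 20. In untreated, non-irradiated sorted cells, mouse 1 was lowest in Acat2 (305 CPM) and highest in Acly (42.0 CPM) and Scd1 (22.6 CPM). In whole organoids with VIP, mouse 3 was lowest in Acly (50.0 CPM), Cyp51 (277 CPM), Insig1 (196 CPM) and Lss (136 CPM). Mouse 2 of that group was lowest in Fdft1 (182 CPM) and highest in Stard4 (194 CPM). In irradiated cells with VIP, mouse 2 was highest in Dhcr7 (49.4 CPM) and lowest in Insig1 (57.3 CPM), and mouse 4 stood apart in Stard4 (62.8 CPM). Srebf2 stood apart in untreated mouse 2 (117 CPM) and VIP mouse 3 (76.8 CPM) of the sorted cells at 72 h and in VIP mouse 1 at 0 Gy (65.8 CPM).

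Msmo1 had differences of opposite sign with VIP in the sets of sorted Lgr5-EGFP+ cells, neither of which passed the test. It was lower in all 4 mice at 72 h (log2 fold change −0.20, adjusted p = 0.919) and higher in all 4 mice of the non-irradiated cells at 48 h (0.31, adjusted p = 0.0556). It was the 1 of 28 members compared for which this held, and the difference was not tested. The experiments differ in mice, culture time and depth, which cannot be told apart here.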

How the results depend on the processing

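The lower members after irradiation kept their direction in every alternative. Of the values of members called in a comparison, 250 stayed past the threshold, 62 lost it and 0 changed sign. Of the values not called, 27 passed it. The latter were counted only for the members of lowest p in each comparison and for Insig1, Srebf1, Srebf2, Hmgcs1, Sqle, Fasn, Scd1 and Abca1. The number of members called after irradiation without VIP (10) was 4 by DESeq2, 5 with at least 10 counts in every sample, 5 with no replicate block and 3 to 8 with 1 mouse left out. That for VIP at 0 Gy (1) was 3 by library size only, 2 with all genes of any count, 2 with at least 10 counts in every sample, 0 with no replicate block, 3 with only the groups compared and 0 to 1 with a sample left out. In whole organoids (0) it was 3 with all genes of any count, 3 with the first technical library only, 3 without the second library of VIP mouse 3 and 0 to 9 with 1 mouse left out. For the interaction of VIP and irradiation (0) it was 1 with all genes of any count. For irradiation with VIP (15), VIP at 6 Gy (0), VIP at 72 h in sorted cells (0) and its difference from whole organoids (0), the count stayed within 1.5 times. The replicate block changed no other member count by that much, and the cause of these shifts was not tested.

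Values that changed sign were all of members not called in that comparison, and those given here are limited to the members counted above. With 1 mouse or sample left out, the VIP effect in whole organoids ranged from −0.053 to 0.19 for Fasn, −0.20 to 0.17 for Scd1 and −0.70 to 0.15 for Abca1. Fasn was −0.24 with the first library only and −0.078 without the second library of VIP mouse 3, Scd1 was 0.15 without the first, and Abca1 was 0.062 by DESeq2. In sorted cells at 72 h the ranges were −0.23 to 0.19 for Srebf1 and −0.15 to 0.33 for Scd1, which was −0.10 with no replicate block. For VIP at 6 Gy they were −0.031 to 0.061 for Srebf2 (0.0198 by library size only and 0.0163 with no replicate block) and −0.032 to 0.11 for Fasn (−0.00499 with no replicate block and −0.0122 with only the groups compared). For irradiation without VIP they were −0.31 to 0.072 for Srebf1 and −0.17 to 0.092 for Srebf2 (9.91e-05 with at least 10 counts in every sample), and with VIP −0.28 to 0.076 for Srebf1 and −0.38 to 0.077 for Srebf2. For the interaction of VIP and irradiation they were −0.15 to 0.26 for Srebf1 and −0.10 to 0.28 for Hmgcs1. For sorted cells against whole organoids they were −0.53 to 0.069 for Insig1, −0.069 to 0.27 for Srebf1, −0.23 to 0.056 for Hmgcs1, −0.27 to 0.077 for Sqle (0.0083 without the first library of VIP mouse 3) and −0.33 to 0.49 for Scd1 (−0.0185 with no replicate block and −0.0776 without that library).

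Among all genes, the number called changed by more than 1.5 times in several fits. In whole organoids (614) it was 300 by DESeq2, 979 with any count, 99 with no replicate block, 363 to 1668 with 1 mouse left out, 1261 without the second library of VIP mouse 3 and 0 without the first. In sorted cells at 72 h (6) it was 1 to 17. For VIP at 0 Gy (74) it was 32 to 184 and at 6 Gy (22) 5 to 110. For irradiation it was 281 by DESeq2 and 176 at the lowest without VIP (445), and 489 and 426 with VIP (776). The interaction gave 34 with any count (0), and sorted cells against whole organoids 0 to 55 (15). The sorted cells at 72 h had the fewest UMIs, which limits what could be detected there. No scaling moved the median of all genes by more than 0.1 on the log2 scale.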
